A study of Gossypium hirsutum with 8 samples.

Results

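Late embryogenesis abundant (LEA) genes of upland cotton (Gossypium hirsutum, cultivar Sicot 71) were followed through waterlogging in root and leaf. The genes were Lea5-D (LOC107916177) and Lea14-A (LOC107922715), found by taking every probe set whose single gene in the platform's probe table carries one of these 2 synonyms in RefSeq. The rule gave 2 probe sets of 2 genes, out of 24029 probe sets tested and 520 genes with a probe set of their own. Both genes were picked with their responses to flooding in these arrays already known. Their differences between flooded and control tissue are therefore given as a description, with their errors and without a p-value.

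The samples were 8 one-colour Affymetrix arrays in 4 groups of 2 biological replicates. Flooded roots were whole roots taken 4 h after the root system was put under water, and control roots came from plants that were left as they had been growing. Flooded leaves were first leaves taken 24 h after the start of flooding, and control leaves came from unflooded plants. All plants were glasshouse-grown in soil to the stage of 2 leaves, and the labels name no transgene and no other treatment. Tissue and time changed together, since roots were sampled at 4 h and leaves at 24 h, so the contributions of tissue and of time cannot be told apart. The labels do not say how many plants went into an array, or at what hour control tissue was taken.

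LEA proteins accumulate in seeds late in maturation, when the embryo dries, and many are also made in vegetative tissue under water deficit, salt or cold, often through the hormone abscisic acid. Most are very hydrophilic and lack a fixed fold in water, and they are thought to protect proteins and membranes while cells lose water. Lea5 and Lea14 were both first described from cotton, where they were called atypical because the encoded proteins are more hydrophobic than the other cotton LEA proteins. The Arabidopsis relative of Lea5, known as SAG21 or AtLEA5, is targeted to mitochondria and responds to oxidative stress and senescence. The Arabidopsis relative of Lea14 belongs to a LEA family that takes a stable, folded form. Upland cotton carries an A and a D copy of most genes, and RefSeq lists a further gene, with the synonyms Lea5 and Lea5-A, that is assigned to no probe set in the probe table used here. Both probe sets are of a type that can read more than 1 transcript, so the copy that gave each signal is uncertain.

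Values are deposited RMA signals (log2), a measure of brightness in which 1 unit is a factor of 2. Medians lay between 6.14 and 6.17 on the root arrays and between 5.32 and 5.41 on the leaf arrays, so root and leaf were not on a common scale as deposited. Within a group the 2 arrays differed by a root mean square SD, over all probe sets, of 0.208 in flooded root, 0.477 in control root, 0.193 in flooded leaf and 0.315 in control leaf. The leaf label was checked with RCA1, rubisco activase of photosynthesis, which averaged 14.64 in flooded leaf and 14.55 in control leaf, against 5.23 in flooded root and 5.57 in control root. No gene of the root marker list matched a name, so the root label was not checked. Precision is limited by having 2 arrays in a group, with which a two-sided exact permutation test can give no p under 0.333.

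Lea5-D was brighter in flooded root than in control root and dimmer in flooded leaf than in control leaf. It read 10.93 and 11.09 in flooded root, against 9.09 and 9.49 in control root. Both flooded root arrays lay above both control root arrays, by 1.44 at the least and 2.00 at the most. The means were 11.01 ± 0.11 in flooded root and 9.29 ± 0.29 in control root (SD, n = 2 each), a log2 difference of 1.72 with an SE of 0.26, or 3.3-fold. In whole tissue a change in the share of cells that make a transcript and a change in the amount per cell cannot be told apart.

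In the leaf, Lea5-D read 6.18 and 5.96 after flooding, against 7.38 and 8.04 in control leaf. The groups did not overlap, and differences between single arrays ran from -2.08 to -1.19. Means were 6.07 ± 0.16 in flooded leaf and 7.71 ± 0.47 in control leaf (SD, n = 2 each), a log2 difference of -1.64 (SE 0.26), or 3.11-fold lower. Flooded leaf was the group nearest to the low end of the signal. The 52 reporter probe sets, which read no cotton gene by their name, had a 95th percentile of 5.45 in flooded leaf, a bound chosen after the data were seen. Lea5-D lay above that bound on both flooded leaf arrays. RMA compresses dim signals, which can make a fold near this level too small.

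Lea14-A was bright in every group and was lower in flooded leaf. It read 10.09 and 10.50 in flooded leaf, against 12.17 and 12.67 in control leaf. Every flooded leaf array lay below every control leaf array, with differences from -2.58 to -1.66 between single arrays. The means were 10.30 ± 0.29 in flooded leaf and 12.42 ± 0.36 in control leaf (SD, n = 2 each), a log2 difference of -2.12 (SE 0.29), or 4.35-fold lower. Even so, Lea14-A stayed among the brighter signals of flooded leaf, at the 93.0 and 94.6 percentile of all probe sets on those arrays, against the 98.6 and 99.0 percentile in control leaf.

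In root, Lea14-A read 11.86 and 11.58 after flooding, against 11.85 and 12.48 in control root. The groups overlapped: flooded root replicate 1 lay 0.01 above control root replicate 1, and the other 3 pairings of a flooded with a control array were lower in the flooded one, the lowest at -0.9. Means were 11.72 ± 0.20 in flooded root and 12.16 ± 0.45 in control root (SD, n = 2 each). The log2 difference was -0.44 (SE 0.29), about the size of the SD of the control pair, and control root replicate 2 set most of it: without that array the difference was -0.13.

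**Figure D1:**
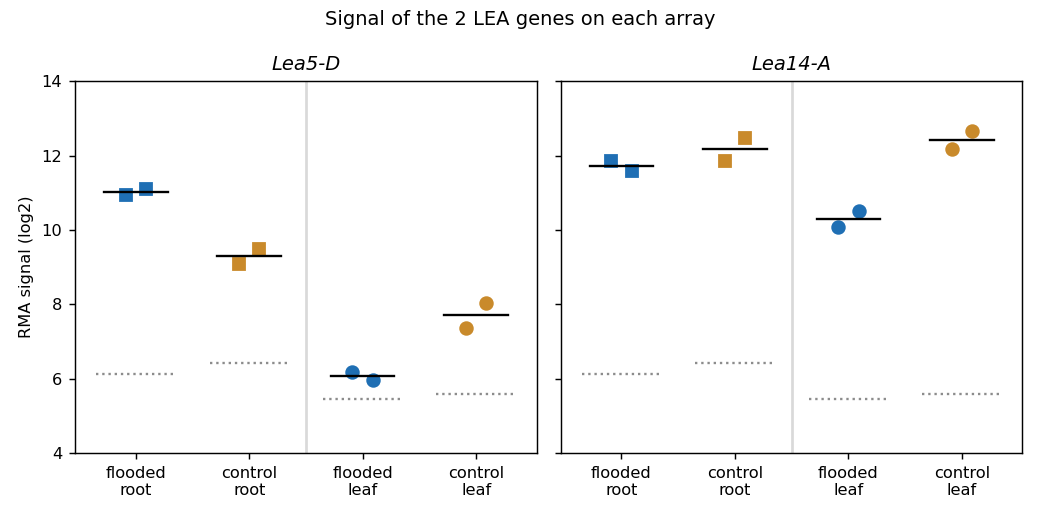
RMA signal (log2) of Lea5-D (left) and Lea14-A (right) on each array, in flooded root, control root, flooded leaf and control leaf. Points are arrays, black lines are means of 2, and dotted lines mark, for each group, the reporter bound (95th percentile). Lea5-D sits at 10.93 and 11.09 in flooded root, above its control, and at 6.18 and 5.96 in flooded leaf, below its control, while Lea14-A is apart from its control in leaf only.

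Both genes were thus lower in flooded leaf, while in root Lea5-D lay above its control and Lea14-A overlapped its control. The root difference minus the leaf difference was 3.36 (SE 0.37) for Lea5-D and 1.68 (SE 0.41) for Lea14-A on the log2 scale. For Lea5-D this value came from both tissues in nearly equal parts, with 1.72 in root and -1.64 in leaf. For Lea14-A both differences were negative, -0.44 in root and -2.12 in leaf, so the root difference made the value smaller. After quantile normalization over the 8 arrays the value for Lea14-A was 1.25. Values centred on the control mean of each tissue lay 1.13 apart between the 2 genes, as a root mean square over the 8 arrays.

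The place of these differences among all 24029 probe sets was fixed in part by the choice of the genes and is given as a description. In leaf, 138 probe sets (0.574%) differed by more than Lea14-A and 454 (1.89%) by more than Lea5-D, in either direction. In root, 1016 probe sets (4.23%) differed by more than Lea5-D, against 8201 (34.1%) for Lea14-A. For the difference between the tissues, 225 probe sets (0.936%) exceeded Lea5-D and 1689 (7.03%) exceeded Lea14-A. Among the 324 probe sets with a name other than a locus number, 5 exceeded Lea5-D in that measure, 20 exceeded it in leaf and 38 in root.

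A probe set is called here when its limma adjusted p, over all 24029, was under 0.05. Of the 2 members, 1 (Lea5-D) was among the calls in root, where 10.7% of all probe sets were called, 6.4% higher and 4.28% lower. Both were among the calls in leaf, where 5.25% of all were called, 2.21% higher and 3.05% lower. Both were also among the calls for the difference between the tissues, where 8.26% of all were called, 4.79% positive and 3.47% negative. Non-overlap of the arrays is common at this size: both flooded arrays lay above both controls for 25.0% of all probe sets in root and 25.5% in leaf, and below both for 21.4% in root and 31.0% in leaf. Since the genes were picked on these contrasts, nothing is read from these counts. The pattern of Lea5-D, called higher in flooded root and lower in flooded leaf, was found in 37 of 24029 probe sets (0.154%). Of these 37, Lea5-D was the only one among the 324 named probe sets. Lea5-D was picked with this pattern known, so nothing is read from these counts either. The opposite pattern was found in 58 (0.241%), calls higher in both tissues in 67 (0.279%) and calls lower in both in 91 (0.379%). The pattern of Lea14-A, not called in root and called lower in leaf, was found in 604 probe sets (2.51%). The root call of Lea5-D was lost without flooded root replicate 2, where its difference was 1.64. In leaf, leaving out either flooded leaf array ended the calls of both genes, as did leaving out control leaf replicate 2. The leaf call of Lea5-D also ended without either flooded root array. Without control leaf replicate 2 the leaf difference was -1.31 for Lea5-D and -1.87 for Lea14-A. Leaving out an array also changes the spread that the 4 groups share in the fit, in which a lone array is assumed to vary like the other groups, and the number of probe sets called in leaf was then 0 and 1 without flooded leaf replicate 1 and 2 (2642 and 3102 at an unadjusted p under 0.05 in limma).

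**Figure D2:**
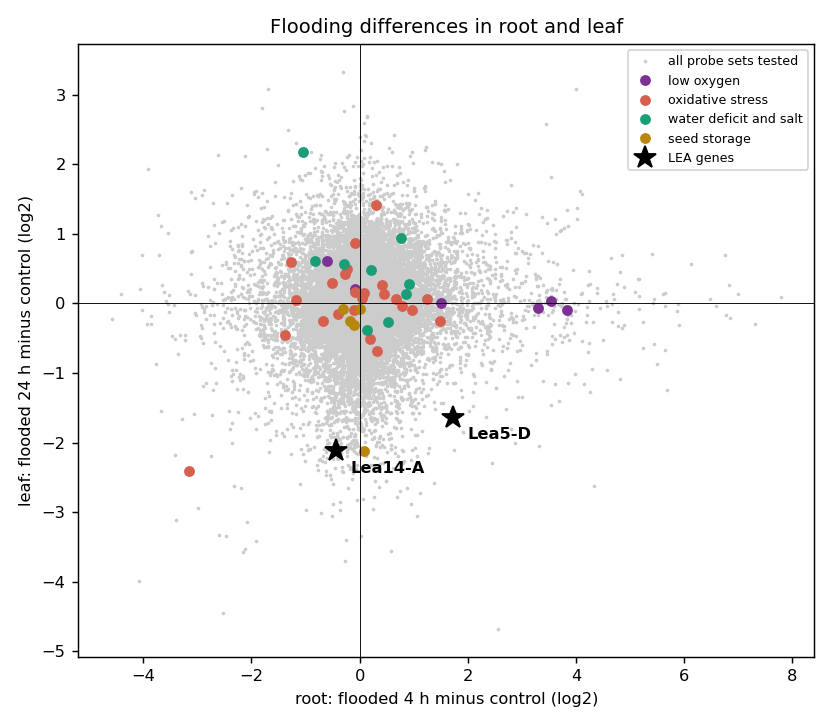
Flooded minus control (log2) in root after 4 h (horizontal axis) against leaf after 24 h (vertical axis), with a grey point for each probe set tested, coloured points for the 4 gene lists and stars for the LEA genes. Lea5-D lies at 1.72 and -1.64, on the side of higher root and lower leaf, and Lea14-A at -0.44 and -2.12.

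Unflooded root and leaf were compared after quantile normalization over the 8 arrays, which puts both tissues on one scale. On that scale Lea5-D read 8.69 and 9.43 in control root, against 7.63 and 8.35 in control leaf. The difference was 1.06 (SE 0.32), or 2.09-fold higher in control root (limma adjusted p = 0.035). In that comparison 39.4% of all probe sets were called, 21.2% higher and 18.2% lower in root. As deposited the difference of Lea5-D was 1.58 (limma adjusted p = 0.001), but there 66.5% of all probe sets were called higher and 10.3% lower in root, and the median over all probe sets was 1.08, against 0.08 after normalization. The call of Lea5-D was lost with array weights (adjusted p = 0.084 in limma) and without any 1 array other than control root replicate 1 and control leaf replicate 2, with limma adjusted p between 0.062 and 0.18 in those fits. Without control root replicate 2 its difference was 0.69 and without control leaf replicate 1 it was 0.70.

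Lea14-A read 11.67 and 12.69 in control root, against 12.26 and 12.61 in control leaf, on the normalized scale. The control leaf arrays fell between the control root arrays. The difference was -0.26 (SE 0.34, limma adjusted p = 0.6), and it was 0.25 without control root replicate 1 and -0.76 without control root replicate 2 (limma adjusted p = 0.43 and 0.043). No difference between unflooded root and leaf was therefore detectable for this gene with these arrays.

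Across all 4 groups on the normalized scale, Lea5-D averaged 10.71 ± 0.14 in flooded root, 9.06 ± 0.52 in control root, 6.41 ± 0.14 in flooded leaf and 7.99 ± 0.51 in control leaf (SD, n = 2 each). The flooded root mean was the highest and the flooded leaf mean the lowest, with the control means between them. Lea14-A averaged 11.52 ± 0.22 in flooded root, 12.18 ± 0.72 in control root, 10.53 ± 0.25 in flooded leaf and 12.43 ± 0.24 in control leaf. Its flooded leaf mean was the lowest, while control leaf overlapped control root and control root overlapped flooded root. The position of Lea5-D within each array, which needs no normalization between arrays, averaged the 94.6 percentile in flooded root, 83.9 in control root, 57.1 in flooded leaf and 73.7 in control leaf. The Lea14-A signal stood at the 97.2, 98.3, 93.8 and 98.8 percentile in the same groups. A percentile of brightness depends on the probes as well as on the transcript, so it places a gene among arrays and does not rank the 2 genes.

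Genes with related roles were taken from lists drawn up with earlier results of these arrays known. Of the 324 named probe sets, 9.57% were called higher and 17.3% lower in root, and 4.94% higher and 6.48% lower in leaf. No further LEA gene, dehydrin or gene of abscisic acid synthesis and signalling had a probe set under a matching name. Seed storage genes are made in the maturing seed together with LEA genes. Of their 5 probe sets 0 were called in root (limma; 0 also at an unadjusted p under 0.05) and 1 was called lower in leaf, with medians of -0.10 in root and -0.25 in leaf, against -0.02 and -0.04 over all probe sets. The leaf call was LEGB, legumin B, a storage globulin. LEGB averaged 5.99 ± 0.19 in flooded leaf and 8.11 ± 0.72 in control leaf (SD, n = 2 each), a log2 difference of -2.12 (SE 0.36, limma adjusted p = 0.021), and stood at 0.08 in root (limma adjusted p = 0.94). A second LEGB probe set lay under the reporter bounds in all 4 groups, at 3.13 in flooded and 3.44 in control leaf. It did not pass in leaf (-0.31, limma adjusted p = 0.57), where a fall could not show in it. The other three were dim throughout: LegA, legumin A, stood at 0.00 in root and -0.08 in leaf, Mat5-D at -0.31 and -0.08, and vicB_At, a vicilin, at -0.17 and -0.25. Leaving out any 1 flooded array, of root or leaf, ended the LEGB call, as did leaving out control leaf replicate 1.

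Of 9 probe sets for water deficit and salt, 1 rose and 0 fell in root (limma), with a median of 0.22. In leaf 1 rose and 0 fell (limma), with a median of 0.48. At an unadjusted p under 0.05 in limma, 4 were higher and 2 lower in root, and 5 higher and 0 lower in leaf. Over all 24029 probe sets, that limit was passed by 3116 higher and 2195 lower in root, and 2349 higher and 2270 lower in leaf. NHX1, a vacuolar sodium and proton exchanger, rose in root, with 9.57 ± 0.23 in flooded and 8.66 ± 0.25 in control root (SD, n = 2 each; log2 difference 0.91, SE 0.20, limma adjusted p = 0.029). The aquaporin NIP6.1, a channel for small neutral solutes, rose in leaf, with 7.83 ± 0.21 in flooded and 5.65 ± 0.27 in control leaf (log2 difference 2.18, SE 0.40, limma adjusted p = 0.026). The control leaf level of NIP6.1 lay near the reporter bound of 5.6, so the rise may be larger. In the other tissue neither passed: NIP6.1 stood at -1.04 in root (limma adjusted p = 0.17) and NHX1 at 0.28 in leaf (limma adjusted p = 0.54). The probe sets that did not pass lay between -1.04 and 0.85 in root and between -0.38 and 0.94 in leaf. The NHX1 call was lost without any 1 of the flooded arrays, with array weights and with each tissue fitted alone, and the list had 3 calls in root without control root replicate 1 or with quantile normalization over the 8 arrays. Leaving out any 1 leaf array or flooded root array ended the NIP6.1 call, and the list had 3 calls in leaf without either control root array or with array weights.

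Of 6 probe sets for low oxygen, 4 rose and 0 fell in root (limma; 1 lower at an unadjusted p under 0.05), with a median of 2.39. In leaf 0 passed (limma; 1 higher at an unadjusted p under 0.05), with a median of 0.02. The rises were in AOX1, the alternative oxidase of mitochondria (3.83, SE 0.34, limma adjusted p = 0.00067), in both probe sets of SusA1, a sucrose synthase (3.53 and 1.5, limma adjusted p = 0.00089 and 0.013), and in ERF7, an ethylene response factor (3.29, SE 0.35, limma adjusted p = 0.0014). The calls numbered 3 without flooded root replicate 1 and with each tissue fitted alone. The sucrose synthases Sus1 and susC stood at -0.08 and -0.60 in root (limma adjusted p = 0.91 and 0.21). In control root both SusA1 probe sets (5.23 and 5.6) and ERF7 (6.36) lay under the reporter bound of 6.43, so their root differences may be too small and are not ranked against that of Lea5-D. In leaf, AOX1, both SusA1 probe sets and ERF7 averaged between 3.59 and 4.29 in both groups of leaf arrays, under the reporter bounds of 5.45 in flooded and 5.6 in control leaf, so a leaf difference like that of Lea5-D could not show in them.

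Oxidative stress genes were of interest beside Lea5-D because of the role of its Arabidopsis relative. Of 24 probe sets, 2 rose and 3 fell in root and 0 rose and 1 fell in leaf (limma), with medians of -0.02 and 0.06. At an unadjusted p under 0.05 in limma, 5 were higher and 4 lower in root, and 4 higher and 2 lower in leaf. Mn-SOD, the superoxide dismutase of mitochondria, rose in root, with 7.69 ± 0.24 in flooded and 6.21 ± 0.33 in control root (SD, n = 2 each; log2 difference 1.48, SE 0.23, limma adjusted p = 0.0065). The control root level of Mn-SOD lay under the reporter bound of 6.43, so the rise may be larger. A second Mn-SOD probe set stood at 0.46 (limma adjusted p = 0.36). The peroxidase POX10 fell in both tissues, with log2 differences of -3.15 in root and -2.41 in leaf (limma adjusted p = 0.0015 and 0.013), and a gene listed as peroxidase fell in root, with -1.26 (limma adjusted p = 0.0063). POX10 averaged 5.65 in flooded leaf, near the reporter bound of 5.45, so its leaf fall may be larger. The other calls in root, named after their values were seen, were pod7 (0.78) and POX5 (-1.38). The calls in root numbered 2 without either flooded root array, 3 without either flooded leaf array, 9 without control root replicate 1 and 1 with each tissue fitted alone. Leaving out any 1 leaf array ended the leaf call, and the leaf calls numbered 3 without either control root array or with array weights.

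The named genes whose pattern was most like each LEA gene were found from values centred on the control mean of each tissue, by the root mean square difference over the 8 arrays. For Lea14-A the 5 closest of 150 named probe sets compared were GRPL1 (0.269), RPS16, a ribosomal protein (0.353), AnnGh1, an annexin that binds membranes with calcium (0.4), EF1A7, the translation elongation factor 1-alpha (0.438), and LEGB (0.469). Their leaf differences ran from -2.23 in GRPL1 to -1.73 in RPS16, beside -2.12 in Lea14-A, and their root differences from -0.74 to 0.08, beside -0.44. Likeness is that of the nearest probe set of a gene: further probe sets named GRPL1, EF1A7 and LEGB stood at -2.53, -0.83 and -0.31 in leaf. In each of the 5, as in Lea14-A, both flooded leaf arrays lay more than 1 log2 unit below the control leaf mean. The 5 were picked for nearness on these same arrays, so their low values in flooded leaf are a description only. Among all 6524 probe sets compared, 4 were closer to Lea14-A than GRPL1 was.

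Lea5-D had no named gene as close, but it was picked with its pattern known. The spread and the probe sets compared also differed from those of Lea14-A, so nothing is read from this gap. The nearest of 94 named probe sets compared was Mn-SOD at 0.714, followed by GOX (0.866), ACS (0.866), the second probe set of SusA1 (0.871) and RPS4, a ribosomal protein (0.882). GOX, measured above the reporter bounds in all 4 groups, stood at 1.88 in root beside 1.72 in Lea5-D, and at 0.05 in leaf beside -1.64. Mn-SOD, ACS and SusA1 stood at 1.48, 2.0 and 1.5 in root, but all 3 lay under the reporter bounds in control root (6.43) and in both leaf groups (5.45 flooded, 5.6 control). Their root differences may therefore be too small, and whether they share the lower signal of Lea5-D in flooded leaf could not be seen. RPS4 stood at -1.82 in leaf beside -1.64, and at 0.17 in root. Of all 3474 probe sets compared, 300 were closer to Lea5-D than Mn-SOD was, none of them with a name other than a locus number. Likeness over 8 arrays in 4 groups rests on few points that share the same arrays, and the control arrays serve every gene.

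**Figure D3:**
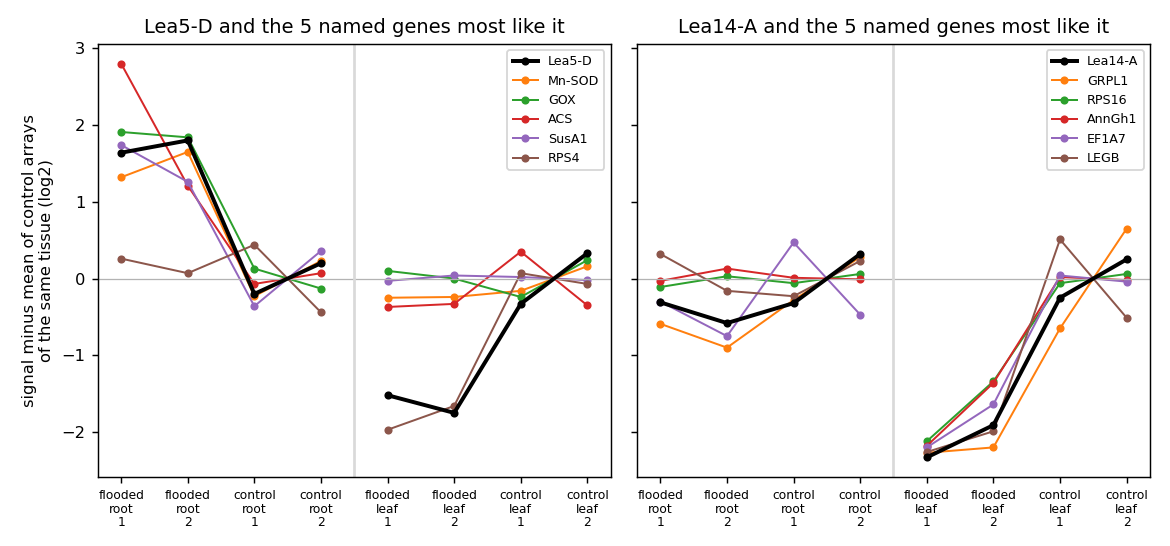
Signal minus the mean of the control arrays of the same tissue (log2) on each array, for Lea5-D (left, black) and Lea14-A (right, black) with the 5 named genes most like each. Lines only join the points of one gene within a tissue. The 5 genes beside Lea14-A lie low with it in flooded leaf, between -2.23 and -1.73 on average, while beside Lea5-D, GOX stands at 1.88 in root and RPS4 at -1.82 in leaf. Mn-SOD, ACS and SusA1 lie under the reporter bounds in leaf, so their leaf values show no lack of a match.

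The flooding differences of both genes kept their sign under each way of processing that was tried. Many of these could not change the sign. Variance models, array weights, blocks, separate tissues, dropped dim probe sets and omitted arrays of the other tissue left each difference unchanged. Where the groups did not overlap, omitting 1 array could not reverse the sign. Quantile normalization, over the 8 arrays and within each tissue, gave 1.65 and 1.6 for Lea5-D in root and -1.59 and -1.63 in leaf. For Lea14-A it gave -0.66 and -0.52 in root and -1.91 and -2.21 in leaf. Lea5-D lay between 1.52 and 1.92 in root over 16 alternatives and between -1.97 and -1.31 in leaf over 17. Lea14-A lay between -2.37 and -1.87 in leaf over 17 alternatives and between -0.76 and -0.13 in root over 16, where it was called in 0 of them (limma; at an unadjusted p under 0.05 it passed in 1, without control root replicate 1).

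**Figure D4:**
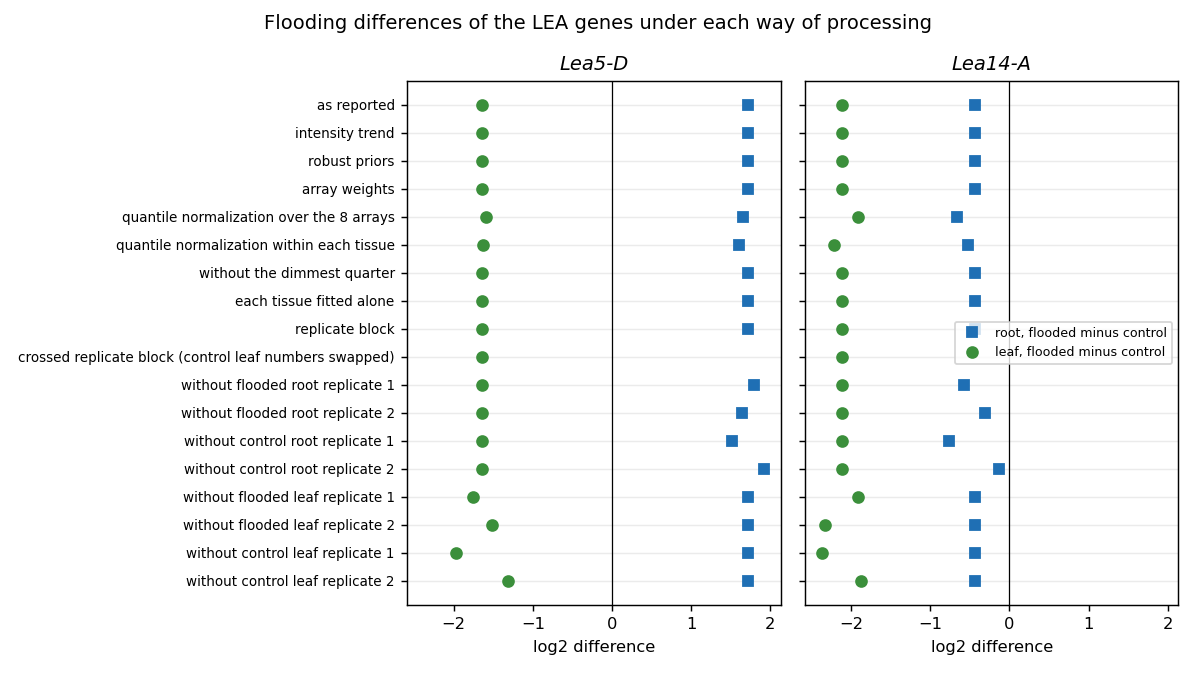
Flooded minus control (log2) of Lea5-D (left) and Lea14-A (right) in root (squares) and leaf (circles), with a row for each way of processing and for each array left out. In root Lea5-D stays between 1.52 and 1.92 and Lea14-A between -0.76 and -0.13. In leaf Lea5-D stays between -1.97 and -1.31 and Lea14-A between -2.37 and -1.87.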

How the data were processed

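The deposited table holds log2 signals of 24132 probe sets, with a column for each array. RMA and limma appear, with no version or role, in the submitters' processing notes. The signals were used as deposited, with no pseudocount, filter on low values or detection call, once 103 control probe sets of the manufacturer had been removed. The 52 reporter probe sets were kept among the 24029 tested. Group means were estimated together with limma 3.58.1 under R 4.3.3 (4 residual and 3.48 prior degrees of freedom), and Benjamini-Hochberg adjustment ran over 24029 probe sets with a threshold of 0.05. These p-values measure only the spread between 2 arrays a group. Control root and control leaf were compared after quantile normalization over the 8 arrays. The fit was tested on simulated data.

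Probe sets were named by the platform's probe table, through gene identifiers, with RefSeq symbols (Gossypium_hirsutum_v2.1). It gives a single gene for 697 probe sets, each of which had a RefSeq entry, more than 1 gene for 46 and no gene for 23286. Coordinates are not used here, because no source here states the build behind the probe design, and sequences were not analysed here.

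The members and lists were chosen with earlier results of these data known, and symbols were put into the lists after the names were seen. By rule the text names both members, up to 3 called genes of each list and flooding contrast by smallest p, lists of at most 6 probe sets in full, and the 5 named genes nearest to each member among probe sets whose spread over the centred arrays was at least 0.5 of the member's. The alternatives changed the variance model (trend, robust priors), weighted the arrays, normalized by quantiles, dropped the dimmest 25% of probe sets, fitted tissues separately, blocked on the replicate number, and omitted single arrays. Same-numbered arrays did not deviate together (r from -0.187 to 0.059 across probe sets), so the numbers were not taken to pair samples.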

Additional observations from a re-analysis of the deposited data

Results flagged for a closer look

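Lea5-D differed in direction between the tissues, with both flooded arrays above both controls in root and below them in leaf (root difference minus leaf difference 3.36 on the log2 scale). Of all probe sets, 25.0% lay above both controls in root and 31.0% below both in leaf. The difference in direction is a description, given with no p-value, because the gene was picked for it. For the following genes of the lists the difference between the tissues passed limma's test, but the lists too were chosen with earlier results of these data known, so these p-values are no independent evidence. The difference was 3.92 for AOX1 (adjusted p = 0.0052), 3.49 for SusA1 (0.0072), 3.36 for ERF7 (0.009), 2.21 for LEGB (0.04) and 1.73 for Mn-SOD (0.02), against -3.22 for NIP6.1 (0.016) and -1.86 for the gene listed as peroxidase (0.009), each from the limma fit. AOX1, SusA1, ERF7 and Mn-SOD lay under the reporter bounds in both leaf groups (5.45 flooded, 5.6 control). A fall in leaf could not show in them, while a rise could show but may read too small. Their leaf differences were -0.09, 0.03, -0.07 and -0.25, so their values rest on the root arrays. NIP6.1 averaged 5.65 in control leaf, near the bound there, so its leaf rise may read too small. Second probe sets named SusA1, LEGB, Mn-SOD and peroxidase did not pass, at 1.49, 0.21, 0.32 and -0.03 (limma adjusted p = 0.058, 0.81, 0.71 and 0.97). Those of LEGB and peroxidase lay under the reporter bounds in all 4 groups, so a fall could not show in them. Tissue and time of sampling cannot be told apart in any of these.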

How the results depend on the processing

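The number of probe sets called in root, 2566, was 1399 with array weights and 1021 with each tissue fitted alone, and 997 to 6781 with 1 array left out. In leaf, 1262 became 3034, 2106 and 0 to 3245, and, when the replicate number was a block, 811 (1038 with the control leaf numbers crossed, an alternative chosen after seeing the data). The difference between tissues, 1985, ranged from 473 to 5294 with 1 array left out. Between control root and control leaf, 9460 calls became 18450 on the values as deposited. With 1 array left out, calls of the members were lost in some fits of root and of leaf, as given above. The difference of Lea5-D was then 1.52 to 1.92 in root and -1.97 to -1.31 in leaf. That of Lea14-A was -0.76 to -0.13 in root and -2.37 to -1.87 in leaf. List probe sets called, 10 in root and 3 in leaf of 44 in all, became 4 in root and 5 in leaf with each tissue alone, 7 in leaf with array weights, and 5 to 16 in root and 0 to 7 in leaf with 1 array left out (limma; 8 to 14 at an unadjusted p under 0.05 where 0 passed). The block changed no call of a member in a flooding contrast. For Lea5-D the difference between the tissues was 3.03 to 3.69 and that between controls 0.69 to 1.43 with 1 array left out. For Lea14-A the difference between controls was -0.76 to 0.25. The cause was not tested. Arrays of 2 per group limit all of these.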
